A study of Mus musculus with 24 samples.

Results

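Proteasome genes of activated mouse CD8+ T cells are described here in 24 RNA-seq libraries. They were taken as the symbols of the deposited count table that begin with Psm, go on with a letter from a to g and then a digit, and that had a mean of at least 1 FPKM (fragments per kilobase of transcript, scaled to the depth of the library, and so a level per length) over the 24 libraries. Of 23366 genes listed, 49 had such a symbol, and 47 of these passed the level and are the members. By role they are 7 genes of the alpha ring, 4 structural beta subunits, 3 constitutive and 3 immunoproteasome catalytic beta subunits, 6 ATPases and 11 other subunits of the regulatory particle, 3 assembly chaperones of the regulatory particle, 4 of the core particle, 4 genes of activators and 1 inhibitor. Psmc3ip, a meiotic recombination factor, meets the rule by its letters only; it is kept as 1 of the 47 and described apart. The symbols left out were Psma8, the alpha subunit of the testis proteasome, with a mean of 0.271 FPKM, and Psmb11, the beta subunit of the thymic proteasome, with 0.257 FPKM. The lowest members were Psme4 with 4.08 and Psme3 with 11.2 FPKM.

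The cells were naive CD8+ T cells of C57BL/6 mice, sorted and then stimulated for 3 days through CD3 and CD28, with 1 µg/ml of each antibody. At day 3 the groups were wild type cells (WT, E8i-Cre-Nr3c1fl/fl) and conditional knockout cells (cKO, E8i-Cre+Nr3c1fl/fl), each either left without an addition (Ctrl) or given dexamethasone (Dex), a synthetic glucocorticoid, at 10 nM. Both genotypes carry loxP-flanked alleles of Nr3c1, the glucocorticoid receptor gene, and the E8i element, an enhancer of Cd8a, drives Cre in cells of the CD8 lineage, so other cells of the mice keep the receptor. Which exon is deleted is not named, so Nr3c1 reads from outside it may remain in cKO cells. At day 9 the groups were WT cells that had then been rested for 3 days in IL2 at 5 ng/ml and restimulated for 3 days. Both rounds of stimulation had no addition (Ctrl), 10 nM Dex, 25 ng/ml IL27, a cytokine of the IL12 family, or both (Dex+IL27). Each of the 8 groups has 3 libraries of 1000 sorted cells each. No label ties a library to its own animal or culture, so the p-values below measure the spread between these libraries, which may be technical.

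The targeted gene fitted the labels: Nr3c1 lay between 2.37 and 3.39 FPKM in the 6 WT libraries of day 3 and between 0.850 and 1.31 FPKM in the 6 cKO libraries. Totals of estimated counts lay between 14221900 and 19018400 per library, and mean estimated counts of the members between 271 (Psmc3ip) and 14978 (Psmb8), with a lowest single count of 70.0 (Psmc3ip). The summed level of 7 CD8 T cell markers (Cd3d, Cd3e, Cd3g, Cd2, Cd8a, Cd8b1 and Thy1) was between 1029 and 1617 FPKM in all libraries. That of 4 CD4 T cell markers was at most 13.3, of 5 B cell markers at most 17.6, of 3 NK markers at most 0.300 and of 5 erythroid and platelet markers at most 7.92 FPKM. The summed level of 13 myeloid and dendritic markers was higher, from 76.3 to 100 FPKM at day 3 and from 39.4 to 216 FPKM at day 9. Among the IL27 libraries, replicate 1 had the lowest level of its group for 36 of 47 members (median log2 deviation from the group mean -0.12) and replicate 2 the highest for 33 (0.12), while the median over all genes deviated by -0.01 and 0.01. In the cKO Dex group replicate 6 had the highest level for 32 members (0.08). Some of the results that rest on these libraries, but not all, are also given without them.

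The proteasome is the protease that breaks down proteins tagged with ubiquitin and cuts part of them into the peptides that MHC class I molecules show at the cell surface. Its core particle (20S) is a barrel of alpha and beta rings with the active sites inside, and its regulatory particle (19S) binds tagged proteins, removes the tag and unfolds them with a ring of ATPases. Interferon-gamma is known to induce the immunoproteasome subunits Psmb8, Psmb9 and Psmb10, which replace Psmb5, Psmb6 and Psmb7 in newly built cores, and lymphocytes carry these subunits without added interferon. Nfe2l1 and Nfe2l2 are transcription factors known to act on proteasome genes through antioxidant response elements.

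The promoters of 4 catalytic genes are shown because the results below turn on them: Psmb8 and Psmb9 did not fall at day 9, and their constitutive counterparts Psmb5 and Psmb6 did. Not shown are Psmb10, which fell and had no match to the motifs searched, and Psmb7, which had no listed promoter. The sequences are taken from RefSeq on GRCm38.p6, from 250 bases before to 50 bases after the start, 5′ to 3′ on the strand of the gene. Psmb8 is shown from chr17:34197945-34198244 on the plus strand, with a match to the letters of a gamma-activated site (TTCNNNGAA) in capitals. Psmb9 is shown from chr17:34187281-34187580 on the minus strand, with a match to a CCAAT box in capitals, found on the opposite strand and so printed as its reverse complement. Psmb5 is shown from chr14:54617946-54618245 on the minus strand and Psmb6 from chr11:70525107-70525406 on the plus strand. Each has a match to the core of an antioxidant response element (TGACNNNGC) in capitals.
Psmb8: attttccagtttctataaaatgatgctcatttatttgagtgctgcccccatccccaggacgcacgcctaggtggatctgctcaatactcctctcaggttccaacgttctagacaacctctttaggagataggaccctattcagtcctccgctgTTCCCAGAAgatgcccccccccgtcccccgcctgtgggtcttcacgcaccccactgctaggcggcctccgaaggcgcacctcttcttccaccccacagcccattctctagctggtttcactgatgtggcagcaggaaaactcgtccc
Psmb9: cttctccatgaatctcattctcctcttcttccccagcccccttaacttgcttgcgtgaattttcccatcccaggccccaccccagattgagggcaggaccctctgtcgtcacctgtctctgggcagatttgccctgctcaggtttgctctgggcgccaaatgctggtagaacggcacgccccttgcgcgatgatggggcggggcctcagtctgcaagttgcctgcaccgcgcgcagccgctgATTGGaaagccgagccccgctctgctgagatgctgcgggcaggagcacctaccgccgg
Psmb5: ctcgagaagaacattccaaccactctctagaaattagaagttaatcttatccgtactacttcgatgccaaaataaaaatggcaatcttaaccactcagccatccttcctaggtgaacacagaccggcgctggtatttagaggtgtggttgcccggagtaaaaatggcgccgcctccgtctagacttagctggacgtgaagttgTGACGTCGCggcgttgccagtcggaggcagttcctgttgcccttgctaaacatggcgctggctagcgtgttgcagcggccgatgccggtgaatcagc
Psmb6: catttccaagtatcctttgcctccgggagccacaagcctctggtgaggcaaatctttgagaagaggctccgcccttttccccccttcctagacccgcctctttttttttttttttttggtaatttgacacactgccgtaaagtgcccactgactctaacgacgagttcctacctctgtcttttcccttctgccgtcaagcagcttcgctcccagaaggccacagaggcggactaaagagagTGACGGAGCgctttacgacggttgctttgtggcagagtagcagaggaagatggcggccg

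Promoters were listed for 40 of the 47 members. Both strands were searched for 5 motifs, and the share with a match was set beside that of all 32851 listed promoters. Members are counted by gene and the background by promoter. The 40 members have 43 listed promoters, and the number of these with a match was the same as that of members for each motif. TGACNNNGC matched in 6 of the 40 members (Psmb5, Psmb6, Psmc6, Psmd12, Psmd9 and Psme4) and in 12.4% of all promoters. TTCNNNGAA matched in 3 members (Psmb8, Psmd2 and Psmg1) and 8.3% of all promoters, and an interferon-stimulated response element (GAAA, NN, GAAA) in 5 members (Psmb3, Psmd4, Psmd9, Psme1 and Psmg4) and 3.44% of all. CCAAT matched in 14 members and 37.4% of all promoters, and ACANNNTGT, the core of a glucocorticoid receptor site, in 0 members and 6.85% of all. The shares of members with TGACNNNGC, TTCNNNGAA and CCAAT, the motifs in capitals above, were thus near those of all promoters. With Dex at day 9 Psmd2 (log2 change -0.68) and Psmg1 (-0.60) fell, unlike Psmb8 (0.07), which shares TTCNNNGAA with them. Of the members with TGACNNNGC, Psme4 did not fall (0.02) and the others did. Whether any motif had a part in these changes was not tested. The motifs were not searched outside these windows. In the RefSeq order of genes Psmb9, Tap1, Psmb8 and Tap2 follow each other, and the window of Tap1, which encodes a chain of the peptide transporter of MHC class I loading, runs from chr17:34187306-34187605 on the plus strand, so it overlaps that of Psmb9. Psme1 and Psme2, which encode the chains of the interferon-induced activator, are separated by Emc9 alone.

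Across the 8 groups the summed level of the 47 members was highest in day 9 Ctrl cells and lowest in day 9 Dex+IL27 cells. At day 3 it was 8654 ± 66.3 FPKM in WT cells without Dex and 8184 ± 71.9 with it, and 8540 ± 90.0 FPKM in cKO cells without Dex and 8605 ± 219 with it (mean ± SD, n = 3 here and below). Untreated cells of day 9 had 9782 ± 156 FPKM, those given Dex 6559 ± 134, those given IL27 6735 ± 353 and those given both 6051 ± 111. The 3 day 9 Ctrl libraries (9748, 9952 and 9647) thus lay above every other library, and the 3 Dex+IL27 libraries (5927, 6089 and 6139) below every other. All day 3 libraries carry the letter D in their titles and all day 9 libraries the letter E, so the day and what these letters stand for cannot be told apart in any level set across days. Dex and IL27 libraries of day 9 overlapped, at 6409, 6602 and 6667 against 6372, 7078 and 6755 FPKM. In bulk samples, fewer cells that express a gene and less of its RNA per cell cannot be told apart.

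Most single members had this order. The mean was highest in day 9 Ctrl for 33 of 47 members and lowest in day 9 Dex+IL27 for 37. These counts were taken for the members only, so they have no share of all genes to be read against, unlike those that follow. All 3 day 9 Ctrl libraries lay above the 9 treated libraries of that day for 38 members, against 28.5% of the 10167 genes that reached the same mean level. They lay above all other 21 libraries for 27 members (14.6% of all genes), and the Dex+IL27 libraries lay below all other 21 for 22 members (11.4%). Psmb1, Psmb8, Psmb9, Psmc6, Psmd3, Psmd8, Psmd10, Psme4 and Psmg4 were the members without the day 9 gap.

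**Figure D1:**
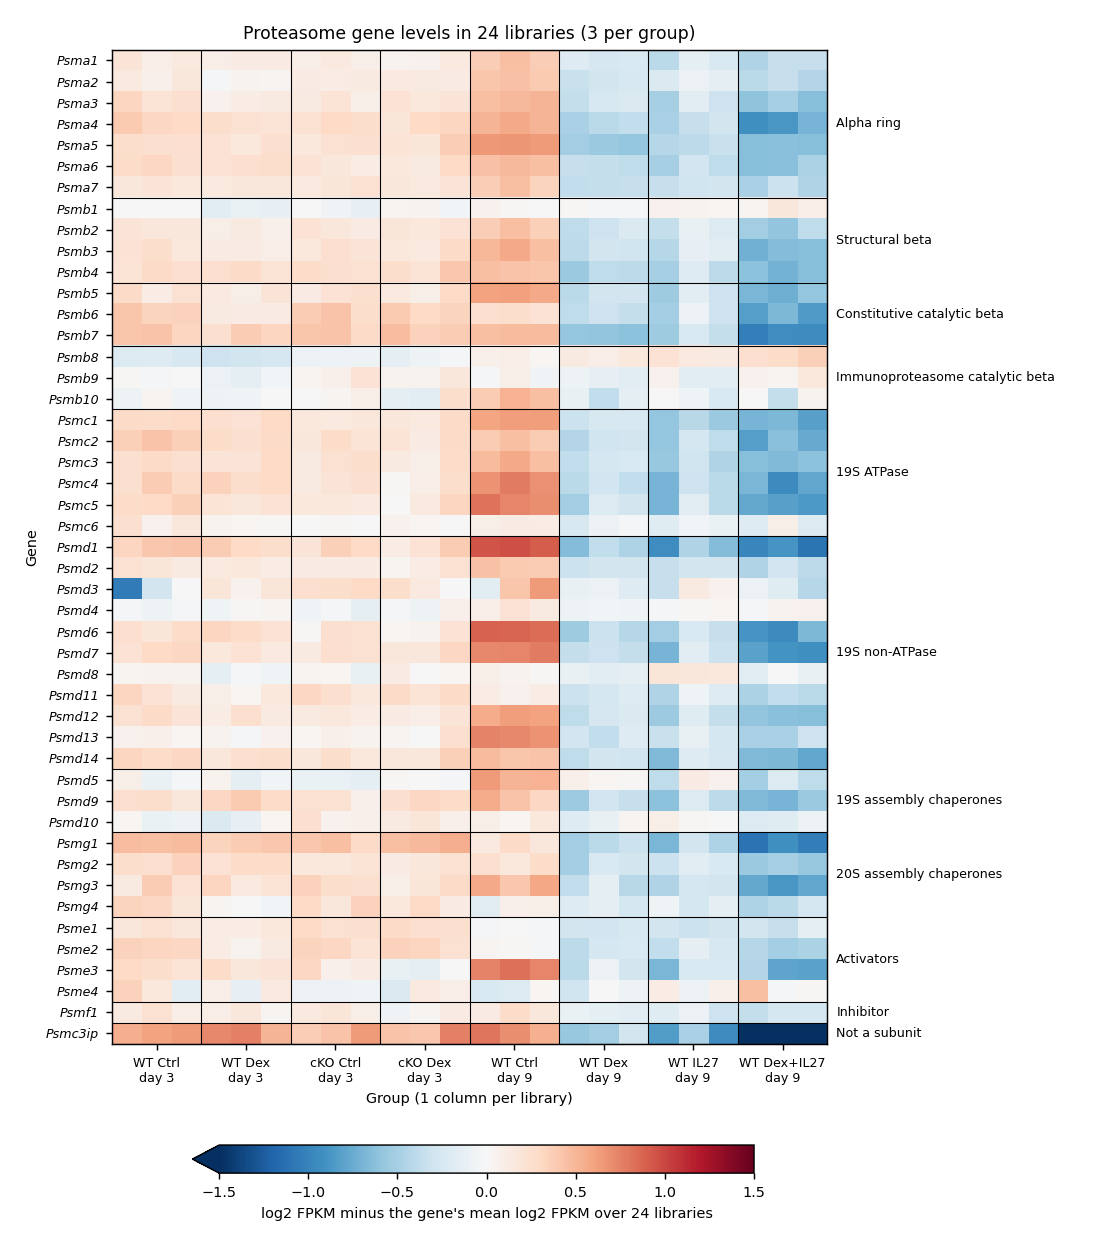
Levels of the 47 members in each of the 24 libraries, as log2 FPKM minus the mean log2 FPKM of the gene over all libraries, with 1 column per library and genes ordered by role. Red is above and blue below the mean of the gene, and the scale is clipped at -1.5, which Psmc3ip passes in Dex+IL27. The 3 columns of day 9 Ctrl are red and the 9 treated columns of day 9 are blue for most genes, while Psmb1, Psmb8, Psmb9 and Psmd8 stay near their means.

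Levels also differed between members, per length. Psmb8 had the highest mean of the 47 in every group, from 598 FPKM in day 3 WT Dex to 892 FPKM in day 9 Dex+IL27. Psme4 had the lowest in 7 groups, from 3.71 to 4.43 FPKM, and Psmc3ip in day 9 Dex+IL27, with 4.44 FPKM. In day 9 Ctrl the 7 alpha ring genes lay between 235 (Psma4) and 565 FPKM (Psma2) and the 6 ATPases between 105 (Psmc2) and 182 FPKM (Psmc6). The 11 other subunits of the regulatory particle lay between 71.5 (Psmd3) and 211 FPKM (Psmd8) there.

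At day 9, each of the 3 treatments was set against the same 3 Ctrl libraries to ask what glucocorticoid, IL27 and both do in restimulated cells. Most proteasome genes were lower in each of the 3 treated groups. A gene counts as changed where the quasi-likelihood test of edgeR gave a Benjamini-Hochberg adjusted p below 0.05 over all genes tested, and changes are log2 fold changes ± SE. With Dex 41 of 47 members fell and 0 rose, against 27.4% that fell and 28.2% that rose of all 12320 genes, and the median change was -0.73 for the members and 0.03 for all genes. With IL27 38 members fell and 0 rose (28.1% of all genes fell and 29.3% rose), with a median of -0.68 against 0.03. With Dex+IL27 40 members fell and 2 rose (32.6% of all genes fell and 34.3% rose), with a median of -1.0 against 0.05. In either direction 55.6%, 57.4% and 66.9% of all genes changed, in the same order. The 3 comparisons share their Ctrl libraries and so are not independent. Without IL27 replicate 1 the count of falls with IL27 was 37, and without replicate 2 it was 39. Scaling by library totals alone, which counts ribosomal RNA in the total, moved the median of all genes to -0.02, -0.03 and -0.07 and gave 42, 40 and 43 members lower.

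Other measures moved with these groups. Rn45s, the precursor of ribosomal RNA, took 9.11% of estimated counts in Ctrl, 14.6% after Dex, 14.1% after IL27 and 16.0% after both. The summed level of 13 myeloid and dendritic markers was 39.4 to 41.6 FPKM in Ctrl, 74.3 to 98.1 after Dex, 96.5 to 216 after IL27 and 185 to 203 after both. Most of it was H2-Ab1, an MHC class II chain, at 25.7, 30.1 and 27.8 FPKM in Ctrl and 158, 168 and 177 in Dex+IL27. Of 8 of the 13 that could be tested, 5 rose and 1 fell with Dex, 6 rose and 0 fell with IL27, and 5 rose and 1 fell with both. Itgam, an integrin chain of myeloid cells, was at 0.0200, 0.10 and 0 FPKM in Ctrl and at 2.31, 1.65 and 2.17 with both. A count of at least 1 read was found for 12 of the 13 in Ctrl (Emr1 had none), for 10 with Dex and with both (Lyz2, Emr1 and Siglech had none) and for 13 with IL27. The summed level of 4 CD4 T cell markers was 6.76 to 13.3 FPKM in Ctrl and 3.86 to 6.69 in the treated groups. Of 3 that could be tested, 1 rose and 1 fell with Dex, 2 rose and 1 fell with IL27, and 1 rose and 1 fell with both. Cd40lg, the ligand of CD40, made up most of the Ctrl sum, at 5.02, 7.63 and 11.1 FPKM, and was at 0.180, 0.590 and 0.320 with both, while Cd4 was at 0.110, 0.130 and 0.160 FPKM in Ctrl and at 1.00, 0.740 and 0.660 with IL27. The part of these in the proteasome result was not tested.

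The alpha ring, which forms the gate of the core, fell as a whole: 7 of 7 genes with Dex, with IL27 and with both, with medians of -0.75, -0.79 and -1.0. Psma5 was at 296, 297 and 294 FPKM in Ctrl and at 131, 128 and 126 FPKM with Dex, and its libraries did not overlap. It had 140, 143 and 149 FPKM with IL27 and 121, 122 and 121 with both. These are changes of -1.19 ± 0.05 (adjusted p = 7.5e-10), -1.02 ± 0.05 and -1.25 ± 0.05. Psma4 fell by 0.94, 0.89 and 1.32 on the log2 scale, so it fell furthest of the ring with both. Of the 4 structural beta subunits Psmb2, Psmb3 and Psmb4 fell in all 3 comparisons. Psmb1 did not pass in any (-0.03 ± 0.05, 0.03 ± 0.05 and 0.11 ± 0.05; adjusted p = 0.661, 0.599 and 0.0574). Its levels were 448, 431 and 427 FPKM in Ctrl and 440, 479 and 456 with both, and they overlapped.

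In the regulatory particle, the ATPases that unfold substrates fell 6 of 6 with Dex and with IL27 and 5 of 6 with both. Psmc4 went from 146, 158 and 147 FPKM in Ctrl to 69.5, 74.9 and 71.1 with Dex, to 56.4, 73.9 and 69.5 with IL27, and to 57.2, 47.4 and 53.3 with both (-1.05 ± 0.09, -1.16 ± 0.09 and -1.47 ± 0.10). Psmc5 changed by -1.07 ± 0.11, -1.15 ± 0.11 and -1.52 ± 0.11. Psmc6 moved least, by -0.21 ± 0.08 (adjusted p = 0.0316), -0.20 ± 0.08 (0.0405) and -0.17 ± 0.08 (0.0682). Its first 2 calls ended when any one Ctrl library was left out (adjusted p from 0.0505 to 0.0943), without Dex replicate 1 (0.145) and without IL27 replicates 1 (0.106) or 3 (0.0762).

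The other 11 subunits of the regulatory particle, which bind and deubiquitinate substrates and hold the lid together, fell 11 of 11 with Dex, 8 of 11 with IL27 and 9 of 11 with both. Psmd1, a large scaffold subunit of the base, had the largest fall of any subunit. It was at 106, 108 and 104 FPKM in Ctrl and at 35.3, 42.7 and 40.1 with Dex, and all treated libraries lay below all Ctrl libraries. With IL27 it had 29.0, 40.5 and 35.1 FPKM and with both 28.1, 29.9 and 25.8. The changes were -1.41 ± 0.10 (adjusted p = 4.6e-08), -1.59 ± 0.10 (2.0e-08) and -1.88 ± 0.10 (1.1e-09), or 0.271 of the Ctrl level with both. Psmd6 (-1.28 ± 0.09, -1.21 ± 0.09 and -1.66 ± 0.09) and Psmd7 (-1.07 ± 0.10, -1.11 ± 0.10 and -1.58 ± 0.10), both of the lid, fell as well. Psmd14, the deubiquitinating enzyme of the lid, changed by -0.74 ± 0.09, -0.78 ± 0.09 and -1.10 ± 0.09. The subunits that did not pass with IL27 were Psmd3 (-0.35 ± 0.16), Psmd4 (-0.13 ± 0.06) and Psmd8 (0.13 ± 0.05), and those with both were Psmd4 (-0.08 ± 0.06) and Psmd8 (-0.10 ± 0.05). Psmd3 was at 50.7, 75.6 and 88.1 FPKM in Ctrl, the widest relative spread of the 47 in that group. Its fall with Dex (-0.45 ± 0.16, adjusted p = 0.0272) was lost without Ctrl replicates 2 (0.0731) or 3 (-0.28, 0.159) and Dex replicates 1 (0.0597) or 3 (0.0812), and with both (-0.52 ± 0.16, 0.0101) without Ctrl replicate 3 (-0.34, 0.0686) or Dex+IL27 replicate 3 (0.0508).

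Chaperones that build the particles fell as well. Of the 4 chaperones of the core, Psmg1, Psmg2 and Psmg3 fell in all 3 comparisons, and Psmg4 passed with both alone (-0.34 ± 0.11, adjusted p = 0.0108). Psmg3 changed by -0.81 ± 0.10, -0.83 ± 0.10 and -1.28 ± 0.10 and Psmg1 by -0.60 ± 0.10, -0.66 ± 0.10 and -1.18 ± 0.10. Of the 3 chaperones of the regulatory particle, Psmd5 and Psmd9 fell in all 3. Psmd10, also called gankyrin, passed with both alone (-0.21 ± 0.08, adjusted p = 0.0352) and lost that call without Ctrl replicates 1 (0.0648) or 3 (0.121) and Dex+IL27 replicates 1 (0.102) or 2 (0.0893).

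Among the activators, which can cap the core in place of the regulatory particle, the falls differed in size. Psme3, which encodes the nuclear activator PA28 gamma, was at 17.9, 18.9 and 17.7 FPKM in Ctrl and at 7.89, 6.19 and 6.12 with both. It changed by -1.0 ± 0.13, -1.12 ± 0.13 and -1.39 ± 0.14. Psme1 was at 342, 351 and 341 FPKM in Ctrl and 289, 275 and 314 with both (-0.24 ± 0.06, -0.26 ± 0.06 and -0.20 ± 0.06), and Psme2 changed by -0.29 ± 0.07, -0.24 ± 0.07 and -0.44 ± 0.07. Psme4, the activator PA200, did not pass with Dex (0.02 ± 0.14) or IL27 (0.18 ± 0.13). It passed with both (0.33 ± 0.13, adjusted p = 0.0404), at 3.45, 3.52 and 4.15 FPKM in Ctrl and 5.53, 3.98 and 4.10 with both, which overlap. That call was lost in 11 of 16 alternatives, among them without Dex+IL27 replicate 1 (0.16, adjusted p = 0.274) and without Ctrl replicates 1 (0.126) or 2 (0.111), with adjusted p from 0.0196 to 0.274 over the 16. Psmf1, an inhibitor of the core, changed by -0.31 ± 0.08, -0.36 ± 0.08 and -0.44 ± 0.08. Psmc3ip, which is no proteasome subunit, had the largest fall of the 47 with both, from 25.6, 23.8 and 21.3 FPKM in Ctrl to 4.12, 4.82 and 4.39 (-2.37 ± 0.16, adjusted p = 5.5e-09).

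**Figure D2:**
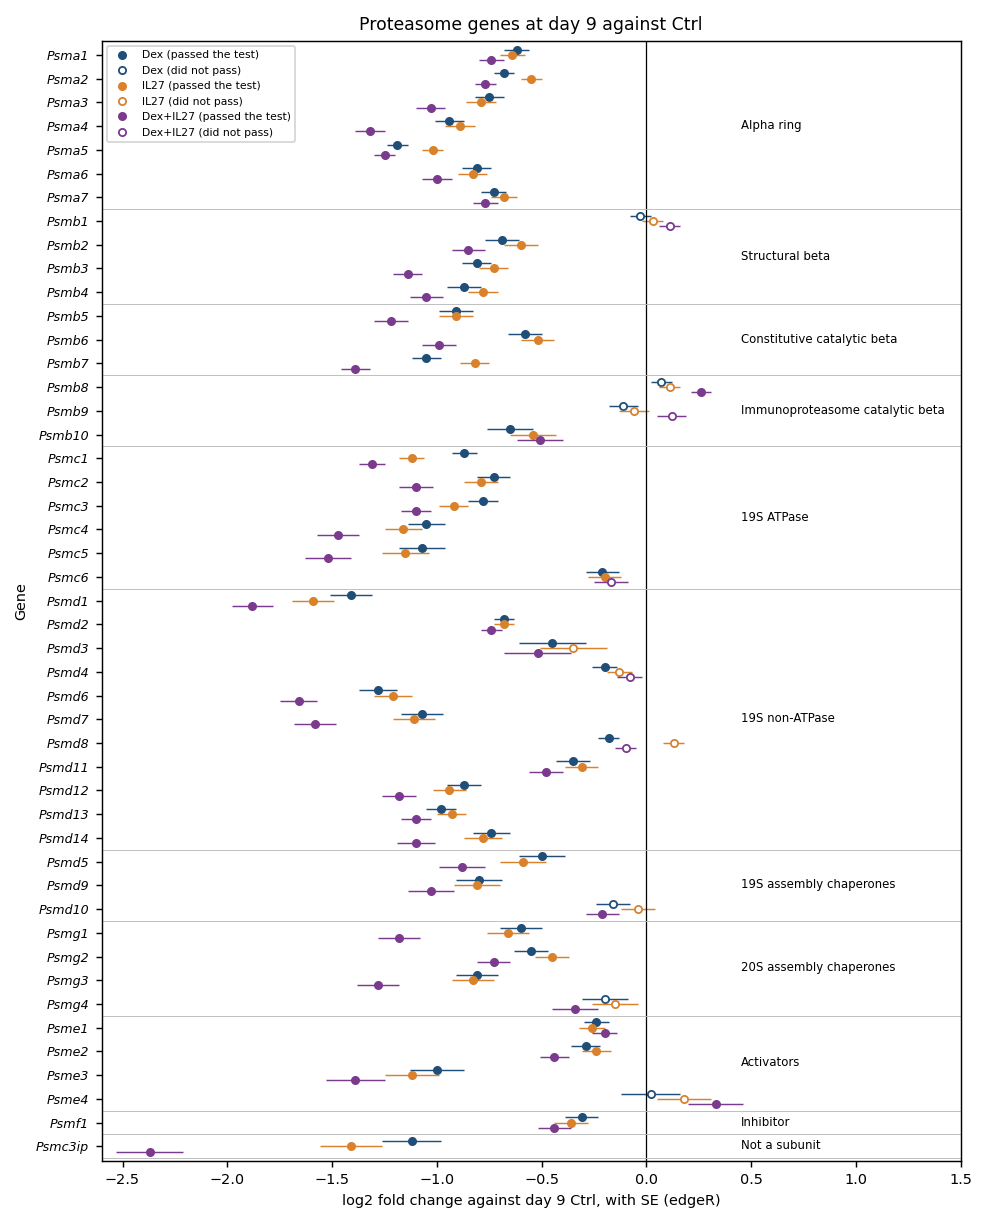
Log2 fold change of each of the 47 members against day 9 Ctrl, from edgeR with its SE as bars, for Dex, IL27 and Dex+IL27 (3 libraries per group), ordered by role. Filled points passed the test at an adjusted p below 0.05 and open points did not. Most points lie between -0.2 and -2 on this scale, and Psmb1, Psmb8, Psmb9 and Psme4 lie around 0 or above.

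The 6 catalytic genes split at day 9. The constitutive Psmb5, Psmb6 and Psmb7, which carry the chymotrypsin-like, caspase-like and trypsin-like activities, fell in all 3 comparisons. Psmb5 was at 319, 322 and 312 FPKM in Ctrl, 159, 173 and 173 with Dex, 145, 188 and 169 with IL27 and 131, 126 and 141 with both. No treated library reached a Ctrl library, and the changes were -0.91 ± 0.08, -0.91 ± 0.08 and -1.22 ± 0.08. Psmb6 was at 298, 302 and 291 FPKM in Ctrl and 142, 157 and 139 with both, and changed by -0.58 ± 0.08, -0.52 ± 0.08 and -0.99 ± 0.08. Psmb7 was at 184, 187 and 187 FPKM in Ctrl and 66.4, 70.5 and 70.1 with both, and changed by -1.05 ± 0.07, -0.82 ± 0.07 and -1.39 ± 0.07.

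Of the immunoproteasome subunits, Psmb8 and Psmb9 did not fall. Psmb8, which takes the place of Psmb5, was at 766, 781 and 744 FPKM in Ctrl, 796, 778 and 808 with Dex, 847, 805 and 795 with IL27 and 866, 877 and 932 with both. It did not pass with Dex (0.07 ± 0.05, adjusted p = 0.259) or IL27 (0.11 ± 0.05, 0.0708) and rose with both (0.26 ± 0.05, 2.6e-04). Psmb9, which takes the place of Psmb6, was at 249, 270 and 244 FPKM in Ctrl and 265, 260 and 283 with both, and its 3 changes (-0.11 ± 0.07, -0.06 ± 0.07 and 0.12 ± 0.07) did not pass. Psmb10, which takes the place of Psmb7, fell in all 3 (-0.65 ± 0.11, -0.54 ± 0.11 and -0.51 ± 0.11), from 53.1, 58.5 and 55.8 FPKM in Ctrl to 40.5, 31.7 and 42.2 with both. The summed level of these 3 was 1074 ± 33.2 FPKM in Ctrl and 1199 ± 50.6 with both, while that of the 3 constitutive genes was 801 ± 10.6 and 348 ± 7.0.

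**Figure D3:**
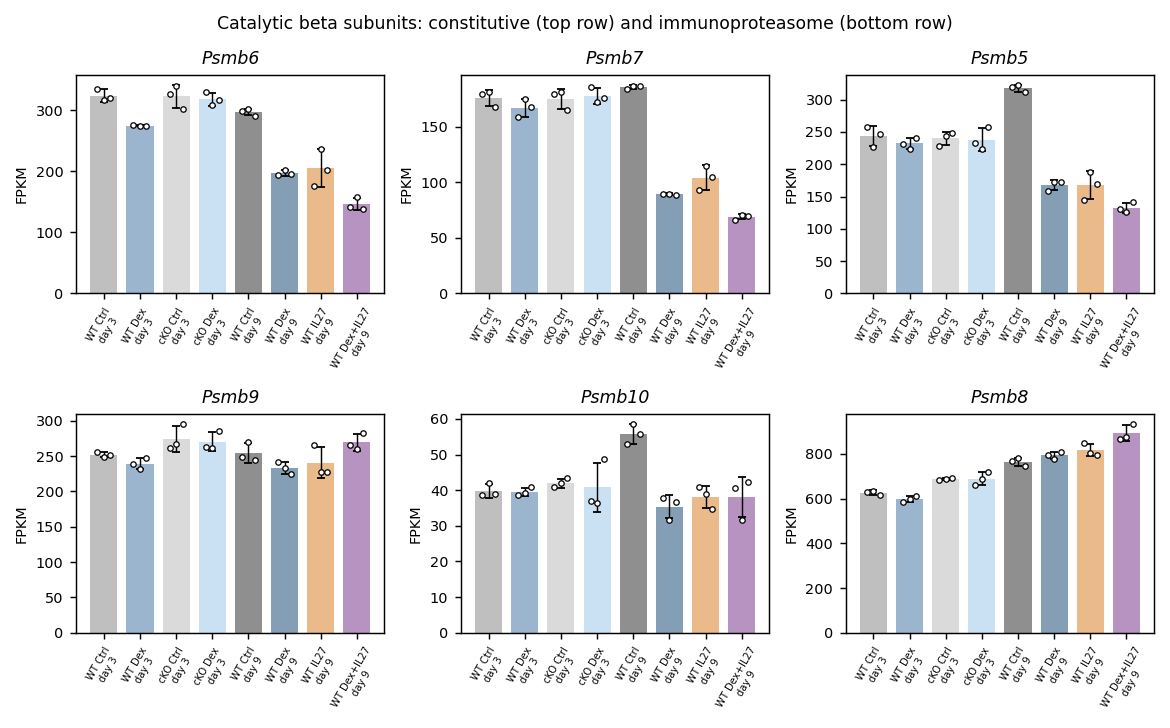
FPKM of the constitutive catalytic subunits Psmb5, Psmb6 and Psmb7 and of the immunoproteasome subunits Psmb8, Psmb9 and Psmb10, with 1 point per library. A bar gives the mean of each of the 8 groups and an error bar its SD. At day 9 the treated libraries of Psmb5, Psmb6, Psmb7 and Psmb10 lie below those of Ctrl without overlap. Treated libraries of Psmb8 overlap with those of Ctrl or lie above.

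The ratio of each immunoproteasome subunit to its counterpart was taken within each library, on the FPKM scale. Psmb8/Psmb5 was 2.40, 2.43 and 2.38 in day 9 Ctrl, 5.02, 4.50 and 4.67 with Dex, 5.84, 4.29 and 4.71 with IL27 and 6.61, 6.94 and 6.63 with both. It was thus 1.97 times the Ctrl ratio with Dex, 2.04 times with IL27 and 2.80 times with both, and the 3 treated groups did not overlap with Ctrl. Psmb9/Psmb6 was 0.833, 0.892 and 0.837 in Ctrl and 1.87, 1.66 and 2.04 with both (2.17 times), and 1.38 times the Ctrl ratio with Dex and with IL27. Psmb10/Psmb7 was 0.288, 0.312 and 0.299 in Ctrl and 0.610, 0.449 and 0.601 with both (1.83 times), with 1.32 times for Dex and 1.22 times for IL27. On the log2 scale the IL27 change of Psmb9/Psmb6 was 0.47, and 0.29 without IL27 replicate 1, and that of Psmb10/Psmb7 was 0.29, and 0.15 without it. A ratio shows only that its 2 genes changed unequally.

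An exact two-sided permutation test of the log2 ratios cannot go below p = 0.10 with 3 libraries against 3. Of 27 ratio tests, 3 ratios in 9 comparisons of 2 groups, 18 had groups without overlap, and each of these had exact p = 0.10, or 0.150 after adjustment over the 27. All 15 of the 5 comparisons within day 9 were among them. At day 3 Psmb9/Psmb6 was 0.764, 0.786 and 0.788 in WT Ctrl and 0.866, 0.844 and 0.901 in WT Dex, without overlap (1.12 times). Psmb8/Psmb5 was 1.13 times as high in cKO as in WT cells with Dex, and Psmb9/Psmb6 was 1.09 times as high without Dex, or 0.13 on the log2 scale and 0.03 without cKO Ctrl replicate 6. Psmb8/Psmb5 with and without Dex in WT cells of day 3 overlapped (2.58 ± 0.0857 against 2.58 ± 0.192).

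**Figure D4:**
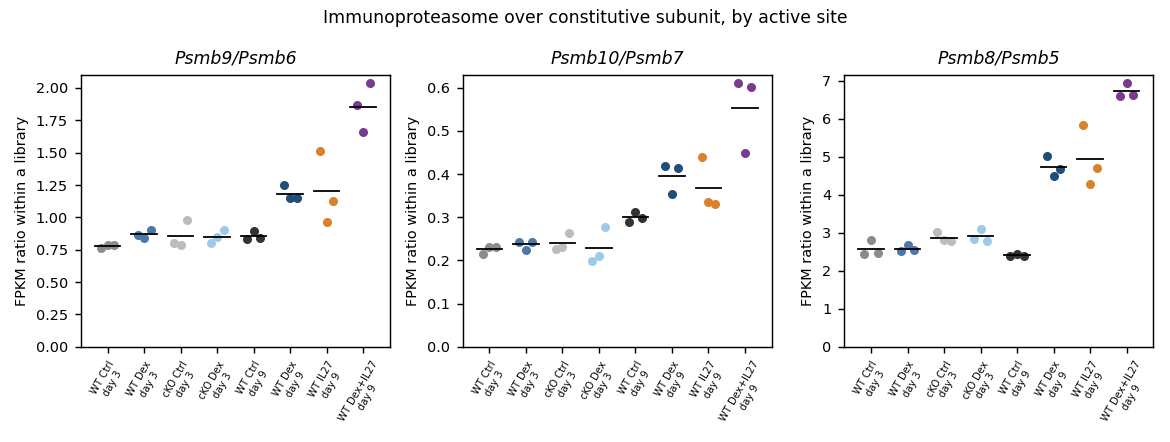
FPKM ratio of the immunoproteasome to the constitutive subunit within each library, in 3 panels with axes that start at 0, with 1 point per library and a line at the group mean. Within day 9 the ratios are lowest in Ctrl and highest in Dex+IL27 in each panel, and replicate 1 is the highest of the 3 IL27 points in each.

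With both agents, 22 of 47 members passed the test as lower than with Dex alone and 25 as lower than with IL27 alone. For 30 the change with both passed the test as above the sum of the single changes. IL27 added to Dex lowered 22 members and raised 3, against 17.1% and 14.9% of all genes (32.0% in either direction), with a median change of -0.19. Psmc3ip (-1.24 ± 0.16), Psmg1 (-0.58 ± 0.10), Psmd7 (-0.50 ± 0.10), Psmg3 (-0.48 ± 0.10), Psmd1 (-0.47 ± 0.10) and Psmc5 (-0.45 ± 0.11) fell most. Those that rose were Psmb8 (0.19 ± 0.05, adjusted p = 0.00803), Psmb9 (0.24 ± 0.07, 0.0244) and Psmb1 (0.14 ± 0.05, 0.0432). The call of Psmb9 was lost without Dex replicates 2 (0.0656) or 3 (0.0962) and Dex+IL27 replicates 1 (0.0505) or 3 (0.0996), with adjusted p from 0.00990 to 0.0996 over 16 alternatives. That of Psmb1 was lost in 13 of 16 alternatives (0.0338 to 0.278), among them without any one Dex library (0.0704 to 0.13) and without Dex+IL27 replicates 2 (0.118) or 3 (0.0915).

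Dex added to IL27 lowered 25 members and raised 1, against 14.3% and 11.7% of all genes (26.1% in either direction), with a median of -0.22. Psmc3ip (-0.96 ± 0.16), Psmb7 (-0.57 ± 0.07), Psmg1 (-0.53 ± 0.10), Psmb6 (-0.47 ± 0.08), Psmd7 (-0.47 ± 0.10) and Psmg3 (-0.46 ± 0.10) fell most. Psmb8 rose by 0.15 ± 0.05 (adjusted p = 0.0339), a call lost in 9 of 16 alternatives (0.00975 to 0.141), among them without IL27 replicates 2 (0.105) or 3 (0.133) and without Dex+IL27 replicate 3 (0.141). In place of these 26 calls there were 12 without IL27 replicate 2, 15 without replicate 3 and 10 in a fit of the 2 groups alone, each of them a fall, and 35 (33 falls) without IL27 replicate 1. Scaling by library totals alone gave 30 falls and 0 rises here and 28 falls and 1 rise for IL27 added to Dex. Over all genes it moved the share of rises among the calls from 45% to 33.6% and from 46.5% to 34.6%.

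The interaction of Dex and IL27, the change with both minus the sum of the single changes, passed the test above 0 for 30 members and below 0 for 0. Of all genes 13.7% passed above 0 and 14.7% below (28.5% in either direction). The median interaction was 0.44 for the members and -0.02 for all genes. The same Ctrl libraries are added in the interaction and subtracted in each single change, so these results are not independent. The shares of all genes also take in genes that rose with each agent. For a gene that fell with each agent, a value above 0 means a smaller fall than the sum of both falls. For Psmd1 the single changes sum to -3.0 and the change with both was -1.88, an interaction of 1.12 ± 0.14 (adjusted p = 8.4e-05). Psma5 (0.97 ± 0.07), Psmd6 (0.83 ± 0.12), Psmd13 (0.81 ± 0.11), Psmc4 (0.74 ± 0.13), Psme3 (0.73 ± 0.19), Psmb10 (0.67 ± 0.16), Psmb5 (0.60 ± 0.12), Psmb7 (0.48 ± 0.10) and Psme1 (0.31 ± 0.08) passed. By role 7 of 7 alpha ring genes, 5 of 6 ATPases and 8 of 11 other subunits of the regulatory particle passed. Of the 4 core chaperones 0 passed and 2 had an unadjusted p below 0.05, as had 4862 of all 12320 genes. Psmb6 (0.11 ± 0.12, adjusted p = 0.517), Psmb8 (0.08 ± 0.07, 0.402) and Psmc3ip (0.17 ± 0.22, 0.610) did not pass. Psmb9 passed (0.30 ± 0.10, 0.0445), a call lost in 11 of 21 alternatives (0.00491 to 0.111), among them without any one Ctrl or Dex library. Leaving out each of the 12 libraries in turn left 27 to 30 calls.

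**Figure D5:**
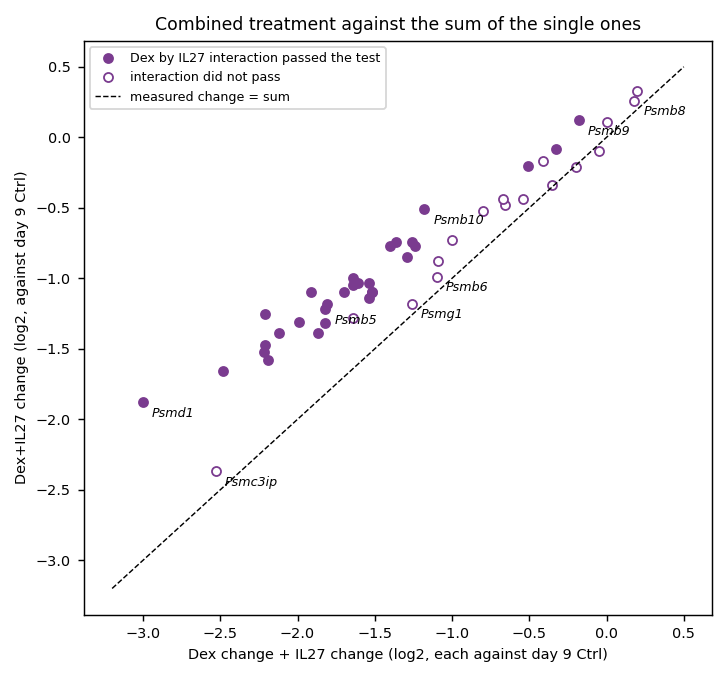
For each of the 47 members, the log2 change with Dex+IL27 against day 9 Ctrl (vertical) over the sum of the changes with Dex alone and IL27 alone (horizontal), with a line where both are equal. Filled points passed the test of the interaction. Most points lie above the line, as for Psmd1 with a sum of -3.0 and a change of -1.88.

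At day 3 few members differed between groups. In WT cells Dex raised 1 member and lowered 2, against 4.93% and 4.50% of all 11967 genes (9.43% in either direction), and the median change was -0.05 against 0.01 over all genes. Psmb6 fell from 335, 316 and 320 FPKM to 276, 274 and 274 (-0.22 ± 0.05, adjusted p = 0.00687), without overlap. Psme2 fell from 478, 472 and 467 FPKM to 407, 392 and 415 (-0.21 ± 0.05, 0.0101), a call lost without WT Dex replicate 2 (0.0519), when 1 member in all was called. Psmd3 passed as higher (0.53 ± 0.16, 0.0433), at 27.5, 46.7 and 57.1 FPKM in Ctrl and 64.3, 59.3 and 64.5 with Dex. Without Ctrl replicate 1 its change was 0.29 (0.0579), and the call was lost in 12 of 16 alternatives (4.1e-12 to 0.166), among them without Ctrl replicate 2 (0.0803) and without any one Dex library (0.0760 to 0.13). With scaling by library totals alone 4 members passed as lower and 0 as higher, and 42.3% in place of 52.3% of the calls over all genes were rises. Psmb8 (-0.05 ± 0.04), Psmb9 (-0.06 ± 0.06) and Psmb10 (0.00 ± 0.09) did not pass.

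In cKO cells 0 of 47 members passed with Dex, as did 0 of all genes (0% in either direction, by the edgeR test, with 399 of 11967 genes at an unadjusted p below 0.05), and 1 member had an unadjusted p below 0.05. DESeq2 and limma also called 0 members. The median change of the members was 0.01. Those with the lowest p were Psme3 (-0.26 ± 0.09) and Psmg1 (0.11 ± 0.06). Psmb6, at 326, 339 and 302 FPKM without and 329, 308 and 316 with Dex (-0.02 ± 0.05, adjusted p = 1.000), overlapped, as did Psme2 (0.02 ± 0.05). The difference between the genotypes in their response to Dex, WT minus cKO, passed for 0 members and 2.95% of all genes (1.57% above 0 and 1.38% below). An unadjusted p below 0.05 was found for 7 of the 47 members and for 1878 of all 11967 genes. The difference was -0.20 ± 0.07 (adjusted p = 0.136) for Psmb6 and -0.23 ± 0.07 (0.0867) for Psme2. The Wald test of DESeq2 called 1 member, as did edgeR without WT Ctrl replicate 3 and without cKO Dex replicate 6.

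Without Dex, cKO and WT cells differed in 1 member, Psmd3, which was higher (0.66 ± 0.16, adjusted p = 0.0387), against 1.38% of all genes that were higher and 0.986% lower (2.36% in either direction). Scaling by library totals alone called Psmd3 too, while rises made up 35.3% in place of 58.3% of the calls over all genes. Psmd3 was at 67.8, 68.1 and 70.0 FPKM in cKO cells, and without the low WT Ctrl replicate 1 the change was 0.41 (0.0377). The call was lost in 10 of 15 alternatives (5.5e-18 to 0.166), among them without WT Ctrl replicate 2 (0.0992) and without cKO Ctrl replicates 4 (0.0991), 5 (0.0825) or 6 (0.0925). Psmb8 did not pass without Dex (0.15 ± 0.04, adjusted p = 0.0638). It was at 629, 634 and 614 FPKM in WT and 685, 686 and 692 in cKO cells there, without overlap. Psmb9 did not pass either (0.13 ± 0.06, 0.220), also without overlap. The response of Psmb8 to Dex, WT minus cKO, differed by -0.05 ± 0.06 (0.719). With Dex in both genotypes, 3 members were higher and 1 lower in cKO than in WT cells, against 3.63% and 3.28% of all genes (6.90% in either direction). Psmb8 was at 584, 599 and 611 FPKM in WT and 661, 688 and 719 in cKO cells (0.20 ± 0.04, adjusted p = 0.00468), without overlap, and Psmb6 (0.21 ± 0.05, 0.0142) and Psme2 (0.19 ± 0.05, 0.0206) were higher too. Psme3 was lower (-0.29 ± 0.09, 0.0496), a call lost in 10 of 15 alternatives (0.0343 to 0.187), among them without any one of the 6 libraries except cKO Dex replicate 6. Psmb6 lost its call without WT Dex replicates 2 (0.0568) or 3 (0.0572) or cKO Dex replicate 4 (0.0750), and Psme2 without WT Dex replicates 1 (0.0599) or 2 (0.110) or cKO Dex replicates 4 (0.10) or 5 (0.0960). The 4 calls became 2, 1 and 2 without WT Dex replicates 1, 2 and 3, 1 and 2 without cKO Dex replicates 4 and 5, and 7 without cKO Dex replicate 6.

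The Dex response of WT cells was lower at day 9 than at day 3 for 35 members and higher for 0, when the difference itself was tested in a fit of all 24 libraries, against 19.2% and 20.4% of all 12666 genes (39.6% in either direction). The median difference was -0.62 for the members and 0.05 for all genes. Psmd1 (-1.32 ± 0.13, adjusted p = 2.5e-08), Psmd6 (-1.29 ± 0.11), Psmc3ip (-1.18 ± 0.18), Psma5 (-1.12 ± 0.07), Psmc4 (-1.04 ± 0.12) and Psmd7 (-0.96 ± 0.11) had the largest differences. Psmb5 (-0.82 ± 0.10), Psmb7 (-0.95 ± 0.09), Psmb6 (-0.32 ± 0.10), Psmb10 (-0.62 ± 0.15) and Psme3 (-0.93 ± 0.16) passed as well. Psmb8 (0.15 ± 0.06, adjusted p = 0.0528), Psmb9 (-0.02 ± 0.09, 0.911), Psme1 (-0.16 ± 0.07, 0.0629), Psme2 (-0.05 ± 0.08, 0.654), Psme4 (0.12 ± 0.19, 0.661) and Psmf1 (-0.24 ± 0.10, 0.0561) did not. Day 9 cells had been restimulated, so a later day, a second stimulation and the lettered set of libraries cannot be told apart.

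Genes that work with the proteasome moved in part with it at day 9. The Rn45s and marker values above belong to these comparisons too, and their part was not tested. Of 14 proteasome-associated genes 8 fell and 2 rose with Dex, 8 fell and 1 rose with IL27, and 9 fell and 2 rose with both, with medians of -0.35, -0.33 and -0.48. Of all genes 27.4% fell and 28.2% rose with Dex, 28.1% and 29.3% with IL27, and 32.6% and 34.3% with both, with medians of 0.03, 0.03 and 0.05, and the counts of the lists below are to be read against these shares. Usp14, a deubiquitinase bound to the regulatory particle, was at 53.0, 53.2 and 51.9 FPKM in Ctrl and 25.4, 26.9 and 24.9 with both (-0.75 ± 0.06, -0.73 ± 0.06 and -1.0 ± 0.06). The ubiquitin receptor Adrm1 (-0.73 ± 0.08, -0.84 ± 0.08 and -0.87 ± 0.08), the deubiquitinase Uchl5 (-0.89 ± 0.10, -0.85 ± 0.10 and -1.24 ± 0.10) and Pomp, the maturation factor of the core (-0.51 ± 0.06, -0.30 ± 0.06 and -0.55 ± 0.06), fell too. In the other direction, Akirin2 had the highest change of the 14 in each comparison (0.75, 0.89 and 0.91). With Dex in WT cells of day 3, 0 of the 14 passed and 2 had an unadjusted p below 0.05. Of all 11967 genes 9.43% passed there and 2741 had an unadjusted p below 0.05.

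Of 8 genes of proteasome gene control, 3 rose and 2 fell with Dex at day 9, 2 rose and 2 fell with IL27, and 1 rose and 2 fell with both. The counts with Dex and with IL27 lie near the shares of all genes. Nfe2l1 was at 25.6, 23.6 and 26.7 FPKM in Ctrl, 32.8, 41.8 and 39.6 with Dex, 35.6, 47.6 and 44.9 with IL27 and 29.1, 30.1 and 27.2 with both. It rose with Dex (0.60 ± 0.11) and IL27 (0.77 ± 0.11) while the subunit genes fell, and did not pass with both (0.23 ± 0.11, adjusted p = 0.0688), with an interaction of -1.15 ± 0.15 (9.1e-05). At day 3 it fell with Dex in WT cells (-0.40 ± 0.07, adjusted p = 6.7e-04), from 40.3, 40.4 and 41.0 to 27.8, 31.1 and 32.4 FPKM. Nfe2l2 was at 11.3, 12.2 and 14.3 FPKM in day 9 Ctrl, 19.1 ± 0.800 with Dex (lowest library 18.4), 7.24, 9.99 and 11.6 with IL27 and 11.0, 9.79 and 13.6 with both. It rose with Dex (0.61 ± 0.15, adjusted p = 0.00314) and did not pass with IL27 (-0.37 ± 0.16, 0.0521) or with both (-0.10 ± 0.15, 0.600). Vcp, the segregase that extracts ubiquitin-tagged proteins, fell in all 3 day 9 comparisons (-0.71 ± 0.07, -0.67 ± 0.07 and -0.81 ± 0.07), and Ngly1, the glycanase that processes the Nfe2l1 protein, rose (0.27 ± 0.09, 0.86 ± 0.09 and 0.75 ± 0.09). The Dex call of Ngly1 was lost without Ctrl replicate 3 (adjusted p = 0.0805) or Dex replicate 1 (0.0725).

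Of 5 genes of ubiquitin and its activating enzymes, 2 rose and 3 fell with Dex at day 9, and 2 rose and 2 fell with IL27 and with both, while 55.6%, 57.4% and 66.9% of all genes changed in either direction. Those that rose were Ubb, a polyubiquitin gene (0.29 ± 0.04, 0.26 ± 0.04 and 0.49 ± 0.04), and Rps27a, a fusion of ubiquitin with a ribosomal protein (0.35 ± 0.05, 0.34 ± 0.05 and 0.37 ± 0.05).

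Of 17 genes of antigen processing and the interferon response, 11 rose and 3 fell with Dex at day 9, 8 rose and 3 fell with IL27, and 12 rose and 3 fell with both, with medians of 0.45, 0.20 and 0.65, against rises of 28.2%, 29.3% and 34.3% and falls of 27.4%, 28.1% and 32.6% of all genes. The MHC class I gene H2-K1 was at 972, 1052 and 981 FPKM in Ctrl and 1797, 1741 and 1832 with both (0.71 ± 0.06, 0.42 ± 0.06 and 0.88 ± 0.06). Tap1, the neighbour of Psmb9, rose by 0.31 ± 0.10, 0.51 ± 0.10 and 0.90 ± 0.10, and its Dex call was lost without Ctrl replicate 3 (adjusted p = 0.0603) or Dex replicate 1 (0.0606). Ifng, which encodes interferon-gamma, fell from 1008, 774 and 713 FPKM to 4.82, 20.6 and 12.2 with Dex, 48.8, 159 and 165 with IL27 and 11.9, 4.95 and 13.4 with both (-6.04 ± 0.52, -2.73 ± 0.43 and -6.32 ± 0.53). Irf1, an interferon-induced transcription factor, rose with both (1.41 ± 0.21, adjusted p = 2.2e-05) and did not pass with Dex (0.35 ± 0.21). With IL27 it passed (0.61 ± 0.21, 0.0186), at 54.7, 27.9 and 30.7 FPKM against 24, 27.9 and 23.1, a call lost without IL27 replicate 1 (0.24, adjusted p = 0.147) and without Ctrl replicates 1 (0.0584) or 3 (0.0617). Nlrc5, the transactivator of MHC class I genes, rose with Dex (0.60 ± 0.09) and with both (0.58 ± 0.09) and did not pass with IL27 (0.15 ± 0.09). At day 3, with Dex in WT cells, 2 of the 17 rose and 2 fell, among them Ifng (-5.22 ± 0.29), against 4.93% and 4.50% of all genes.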

How the data were processed

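The authors deposited a table of estimated counts per gene and a table of FPKM values for 24 libraries of 1000 sorted cells, made with a modified SMART-Seq2 protocol (11 amplification cycles, paired reads of 38 nt), per the labels' protocols. The submitters' processing notes name TopHat, RSEM, DESeq and the build mm9, without roles or versions. RSEM, which estimates expected counts, shares out reads that match several genes, and several proteasome genes have processed pseudogenes, so their counts may hold or lose such reads. Whether counting used strand is not given in the sources used here. All columns were mapped to a sample by their names.

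Estimated counts were rounded and fitted with edgeR 4.0.16 (R 4.3.3; TMM scaling, filterByExpr with a minimum count of 10, glmQLFit and glmQLFTest, two-sided), with 1 mean per group over the 12 libraries of a day, or over all 24 for the comparison of days. P-values were adjusted by Benjamini-Hochberg over all genes tested and called below 0.05. The SE is the log2 fold change divided by the square root of the F statistic. FPKM values as deposited give the levels, sums and ratios; their ratios were compared by exact permutation tests (SciPy 1.17.1). All 47 members passed the count filter in each fit. The steps were run on simulated counts in which few genes differed between groups. Most genes changed at day 9, so that run does not test the scaling there.

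The members, gene lists and markers were chosen with earlier results of these data known. Genes named were the 6 catalytic genes, the activators, Psmf1, Psmc3ip, the 6 called members with the largest rise and fall in each comparison, or the 2 with the lowest p where none was called, and of the other lists the 3 with the lowest p together with Nfe2l1, Pomp, Ifng, Irf1 and Nlrc5. Some genes of these other lists are not reported here and were left out of their counts. Psma2, Psma4, Psma5, Psmb1 to Psmb4, Psmc2, Psmc4, Psmc6, Psmd2 to Psmd5, Psmd7 to Psmd10, Psmd14, Psmg1 to Psmg4, Akirin2, Nfe2l2, Ngly1, Tap1 and the markers were named outside this rule in some comparisons, after their values were seen. Alternatives were DESeq2 size factors, library totals alone, no filter on low counts, the DESeq2 1.42.0 Wald test, limma 3.58.1 on log2(FPKM + 1) with and without a minimum of 1 FPKM and on log2(FPKM + 0.1), other sets of libraries, a replicate block and each library left out. Promoter sequences come from RefSeq on GRCm38.p6; no coordinate of the files' build is given.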

Additional observations from a re-analysis of the deposited data

Results flagged for a closer look

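These results were set apart because a test of the difference between 2 responses passed. Groups of 3 libraries are too small for a test of single outlying libraries, and none was made.

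The test that the response to Dex depended on IL27 at day 9 passed for 30 of the 47 members, each with an interaction above 0. Of all genes 13.7% passed above 0 and 28.5% in either direction. Among the members named, it was 1.12 for Psmd1, 0.97 for Psma5, 0.83 for Psmd6, 0.81 for Psmd13, 0.74 for Psmc4, 0.73 for Psme3, 0.67 for Psmb10, 0.60 for Psmb5, 0.48 for Psmb7, 0.31 for Psme1 and 0.30 for Psmb9. Of the other lists it was 2.45 for Ifng, 0.25 for Pomp and -1.15 for Nfe2l1. The call of Pomp was lost in 7 alternatives.

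The response to Dex in WT cells passed as lower at day 9 than at day 3 for 35 of the 47 members. Of all genes 19.2% passed as lower and 39.6% in either direction. The difference was -1.32 for Psmd1, -1.29 for Psmd6, -1.18 for Psmc3ip, -1.12 for Psma5, -1.04 for Psmc4, -0.96 for Psmd7, -0.95 for Psmb7, -0.93 for Psme3, -0.82 for Psmb5, -0.62 for Psmb10 and -0.32 for Psmb6. Of the other lists it was -0.53 for Pomp, 0.47 for Nlrc5 and 1.04 for Nfe2l1.

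At day 3 the response to Dex differed between WT and cKO cells for Ifng (-4.84) and Nfe2l1 (-0.41, adjusted p = 0.0233), while 0 proteasome members passed this test by edgeR. An unadjusted p below 0.05 was found for 7 of the 47 members and for 1878 of all 11967 genes. The Nfe2l1 call was lost in 7 alternatives, with an adjusted p of 0.121 in the fit of all 24 libraries.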

How the results depend on the processing

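The counts of members called at day 9 against Ctrl, and for the difference between days, stayed within 1.5 times under every alternative run. The exceptions among the other comparisons follow. For cKO against WT without Dex the count of 1 became 0 in the 3 limma settings, in a fit of the 2 groups alone and in a fit of all 24 libraries. For cKO against WT with Dex the count of 4 became 7 by the DESeq2 Wald test and 2 with all 24 libraries. For the difference between genotypes the count of 0 became 1 with library totals alone, without a count filter, by the DESeq2 Wald test and with a replicate block. For Dex added to IL27 the count of 26 became 10 in a fit of the 2 groups alone. The cause was not tested for any of these.

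Leaving out 1 library at a time gave 1 to 3 calls for Dex in WT cells of day 3, 0 for Dex in cKO cells, 0 to 1 for cKO against WT without Dex, 1 to 7 with Dex, and 0 to 1 for the difference between genotypes. At day 9 it gave 39 to 41 for Dex, 37 to 39 for IL27, 40 to 43 for Dex+IL27, 21 to 25 for IL27 added to Dex, 12 to 35 for Dex added to IL27 and 27 to 30 for the interaction, and 35 to 36 for the difference between days. Over 775 gene results and 13170 alternatives, 12695 kept direction and side of the threshold, 287 lost a call, 188 gained one and 0 reversed.

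Same-numbered libraries deviated together in 0 of 6 pairs at day 3 (r from -0.0362 to 0.10) and in 3 of 18 at day 9 (r over 0.1; range -0.145 to 0.227), so the numbers were not taken as pairing. The replicate block changed a count by over 1.5 times in the difference between genotypes alone, from 0 to 1. Depth limits Psmc3ip most, with a lowest count of 70.0 in 1 library.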
